A study of Mus musculus with 9 samples.

Results

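The genes described here belong to the developmental homeobox and T-box families: Lhx, Irx, Dlx, Msx, Pitx, Otx, Meis, Pbx, Emx and Tbx, and the sine oculis homeobox genes (such as Six4 and Six5). They were chosen by symbol alone, as every listed gene whose name starts with 1 of these family names followed by a number. This gave 66 of the 24505 genes in the nascent transcription table, 56 with protein-coding and 10 with non-coding transcripts, the latter antisense or opposite-strand partners such as Tbx3os2. The proteins are transcription factors that pattern the embryo, and a large part of their genes, though not all, are silent in most adult tissues. Many are textbook targets of the Polycomb repressive complexes: PRC2 places the mark H3K27me3 over their start sites and often over long stretches around them, and the mark is associated with low transcription.

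The data come from organoid cultures of mouse duodenum, epithelial mini-guts grown in a dish, under 3 conditions named RANKL, ENRI and WENRC. By their labels these stand for M cells, which carry antigens across the epithelium over lymphoid tissue, for absorptive enterocytes and for stem cells. GRO-seq, a run-on assay of transcription in progress, had 2 libraries per culture. Those of ENRI and WENRC came from mouse 1 and mouse 2, and the RANKL pair carries only a replicate number. H3K27me3 ChIP-seq had 2 RANKL libraries, which the authors merged into 32.7 M tags, and 1 WENRC library of 36.3 M tags. The labels give no genotype, strain, age or dose, and do not spell out the culture names. Whole cultures were measured, not sorted cells, as far as the labels say. Nothing in them says that the RANKL libraries are separate cultures, so p-values measure the spread between these libraries, which may be technical. The file header lists the RANKL libraries under a repeat sequencing and the other 4 elsewhere, so an effect of that sequencing and one of RANKL cannot be told apart. The header puts ENRI and WENRC on 2 dates, each with 1 library of both. GRO-seq depth is unknown. In bulk cultures, fewer cells of a type and less RNA per cell cannot be told apart.

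The labelled cell types were checked first. All 6 of the M cell markers examined were higher in RANKL than in both other cultures, with Gp2, the M cell surface receptor, at 8.56 and 8.65 in RANKL against 2.56 to 3.72 elsewhere. Of 5 stem cell markers, 5 were higher in WENRC than in ENRI and 3 higher in RANKL than in ENRI, and 1, Lgr5, was lower in RANKL than in WENRC. All 6 enterocyte markers were lower in WENRC than in ENRI. In RANKL 3 of them were lower than in ENRI and 3 were higher than in WENRC. These are normalized values on a log2 scale, as are all GRO-seq values below.

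H3K27me3 at these genes was more often higher in RANKL than in WENRC. The authors' peak tables hold regions with at least 2 times more tags in RANKL than in WENRC, and the reverse, each assigned to the nearest start site only. A RANKL-higher region lay within 5 kb of the start of 38 of the 66 genes (57.6%), against 4673 of all 24505 listed genes (percent called 19.1). A WENRC-higher region lay within 5 kb of 6 of them (9.09%), against 1332 of all genes (5.44%). On the autosomes alone the shares were 58.5% of 65 against 17.9% for RANKL-higher regions and 7.69% against 5.31% for WENRC-higher ones. With 1 pooled value and 1 library there is no replicate check and no test of these shares.

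The share depended on the distance allowed. Within 1 kb, 34.8% of the genes had a RANKL-higher region (all genes 10.5%) and 1.52% a WENRC-higher one (all genes 1.24%). Within 50 kb the shares were 81.8% against 30.5%, and 43.9% against 18.6%. At any distance, 405 RANKL-higher regions were assigned to 56 of the genes (84.8%, all genes 33.7%) and 79 WENRC-higher regions to 34 (51.5%, all genes 24%), and 6 of the 66 had neither. Beyond the nearest kilobases regions of both kinds were thus assigned to these genes more often than to listed genes in general. Each region counts for its nearest start only, so these shares also depend on how far apart genes lie. Of the RANKL-higher regions at these genes 71.9% were intergenic, against 53.4% over the whole table. For WENRC-higher regions the shares were 79.7% and 61.3%. The part of gene spacing in these shares was not tested.

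**Figure D1:**
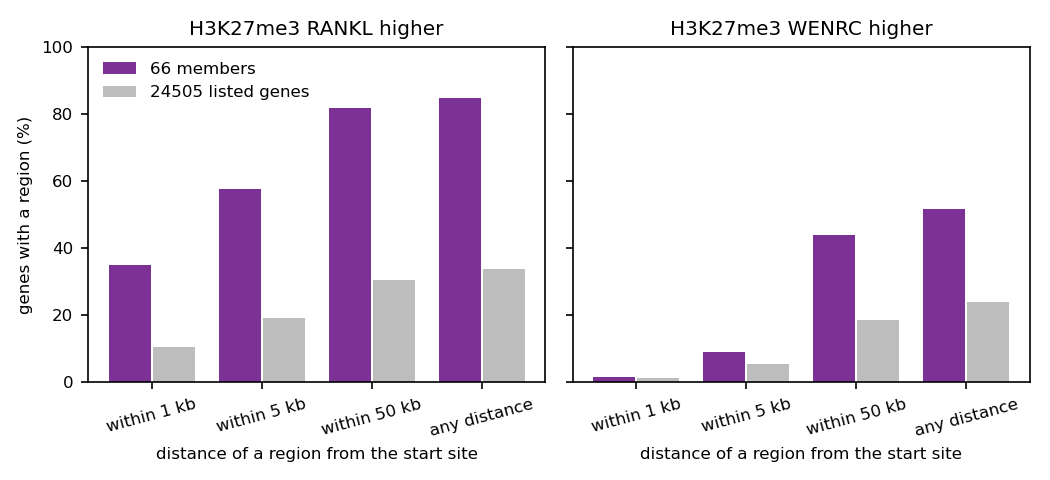
Share of genes (vertical axis, percent) with an H3K27me3 region within a given distance of the start site (horizontal axis), for the 66 homeobox and T-box genes (purple) and all 24505 listed genes (grey). In the left panel (RANKL higher) the members stand at 57.6% within 5 kb against 19.1% of all genes, and in the right panel (WENRC higher) at 9.09% against 5.44%.

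The RANKL-higher regions near these starts also held tags in WENRC. In the 67 such regions within 5 kb, at 38 genes, the median density was 36.0 scaled tags per kb in WENRC and 83.8 tags per kb in RANKL. The 7595 such regions of all genes had medians of 19.0 and 51.9. The authors' fold had a median of 2.32 at these genes and 2.71 over all, so that the regions near these genes held more tags in both cultures with a smaller fold. A fold of at least 4 near the start was found for 3 of the 66 genes, Meis2 and Pitx1 among them (4.55%, against 3.04% of all genes). For WENRC-higher regions 0 of the 66 had one (all genes 1.37%). Over all 405 regions the median fold was 2.68, against 2.92 over the whole table.

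**Figure D2:**
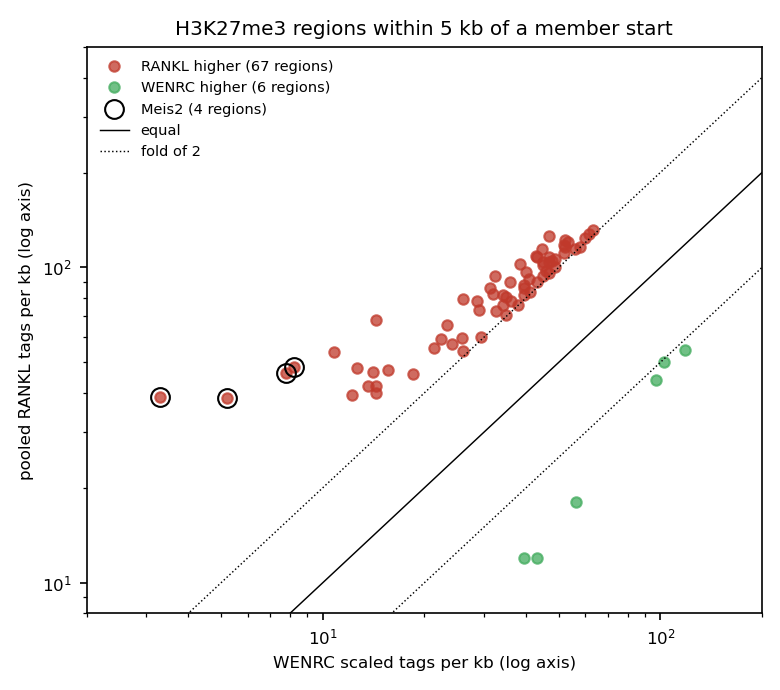
H3K27me3 tags per kb in pooled RANKL (vertical axis) against WENRC after scaling to the RANKL depth (horizontal axis), both on log axes, for the 67 RANKL-higher (red) and 6 WENRC-higher (green) regions within 5 kb of a member's start. The tables hold only regions beyond the dotted lines, a fold of 2, and the 4 circled Meis2 regions lie at the lowest WENRC densities of the red points.

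Meis2, a homeobox partner of Hox and Pbx proteins with roles in limb, heart and palate development, stood out by the size of the difference. Of its 13 regions 4 lay within 5 kb of its start, on chromosome 2 of the mm9 build. The region at chr2:115890362-115891441 had 42 tags in RANKL and 3.6 scaled tags in WENRC, a fold of 11.66 as the authors give it, the largest among the 405. Its neighbours were chr2:115893301-115894340 (40 against 5.4 tags, fold 7.41), chr2:115895058-115896439 (64 against 10.8, fold 5.92) and chr2:115886041-115889548 (169 against 28.8, fold 5.87). Along the whole locus the 13 regions covered 17.0 kb within a span of 218 kb at a median fold of 5.55, and no WENRC-higher region was assigned to the gene. GRO-seq values of Meis2 were high in every library. They were 11.61 and 11.65 in RANKL, 11.92 and 12.21 in ENRI, and 11.50 and 11.08 in WENRC. Both RANKL libraries lay above both WENRC libraries and below both ENRI libraries. The log2 change was 0.34 over WENRC (SE 0.20, limma FDR 0.313) and -0.43 against ENRI (SE 0.20, limma FDR 0.172). The first of these turned to -0.09 with quantile normalization. Between WENRC and ENRI the change was -0.77 (limma FDR 0.0516), and with the mouse number as a block this passed the threshold (limma FDR 0.0445). It shrank to -0.36 with quantile normalization (limma FDR 0.136) and was -0.66 with upper-quartile recentring (limma FDR 0.0507).

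The remaining Meis and Pbx genes, which belong to the TALE class, split by family. Meis1 and Meis3 also had RANKL-higher regions at the start. Meis3 carried 1 of 6463 bp at chr7:16757714-16764177 with 301 tags against 90.9 (fold 3.31), and Meis1 had 27 regions over 440 kb. Meis1 also had 7 WENRC-higher regions over 418 kb, at a median fold of 4.28 against 2.77 for its RANKL-higher ones. Pbx2, Pbx3 and Pbx4, broadly transcribed DNA-binding partners of Meis and Hox proteins, had no region in either table.

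The whole tables hold 35798 RANKL-higher and 13607 WENRC-higher regions, so more of the first kind is the general case. By count of regions, the largest groups were the Lhx genes (LIM-homeobox factors of neuron and pituitary development), with 73 RANKL-higher and 14 WENRC-higher regions. The sine oculis homeobox genes (eye, muscle and kidney development) had 69 and 7, and Irx genes (Iroquois factors of heart and neural patterning) had 57 and 12. Tbx genes had 50 and 20, Meis 43 and 7, Dlx (distal-less factors of limb and forebrain) 37 and 6, Pitx 32 and 6, and Msx 23 and 1. Emx, Otx and Pbx genes had 14, 6 and 1 RANKL-higher regions, and 2, 4 and 0 WENRC-higher regions. Start sites with a RANKL-higher region within 5 kb numbered 7 of 9 in Lhx, 5 of 6 in Irx, 4 of 4 in Msx, 3 of 3 in Meis, 6 of 10 in Dlx and 4 of 7 in the sine oculis homeobox genes. In Tbx they numbered 5 of 14 and in Pitx 2 of 3.

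**Figure D3:**
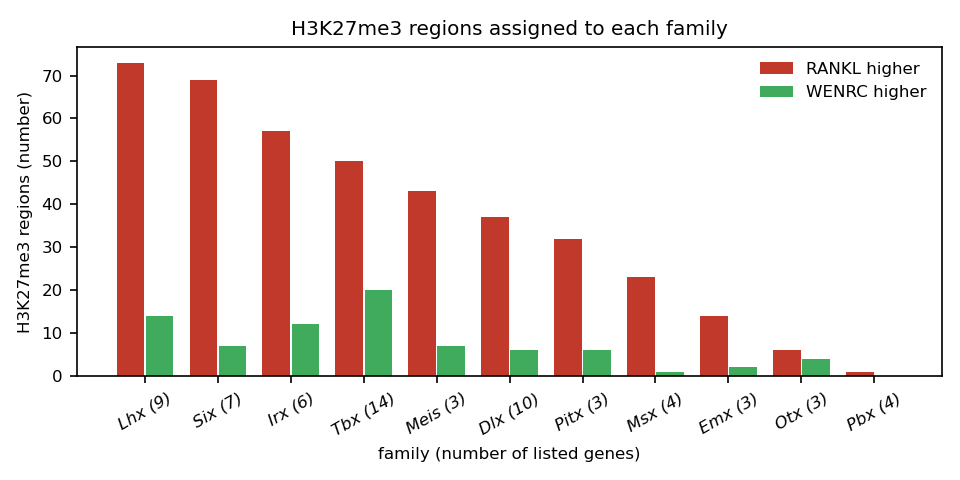
Number of H3K27me3 regions (vertical axis) assigned to each gene family (horizontal axis, with the number of listed genes in brackets), RANKL higher in red and WENRC higher in green. The counts run from 73 against 14 in Lhx to 1 against 0 in Pbx, and over the whole tables they are 35798 against 13607.

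RANKL-higher regions lay spread over gene clusters and covered a small part of each span. Whether they lay closer together there than over the rest of the genome was not tested. The Six2 and Six3 locus on chromosome 17, with Six3os1, held 55 RANKL-higher regions over 544 kb, and 3 WENRC-higher ones. The Irx3, Irx5 and Irx6 cluster on chromosome 8 held 33, which covered 28 kb of a 1001 kb span (9 WENRC-higher). The Irx1, Irx2 and Irx4 cluster on chromosome 13 held 24, which covered 14.9 kb of 1294 kb (3 WENRC-higher). Lhx5, a factor of forebrain neurons, had 27 regions covering 30.9 kb of a 160 kb span on chromosome 5, with 1 of the reverse kind. The widest single region, 10119 bp, covered Msx1 and its antisense transcript Msx1os (chr5:38207342-38217461) with 980 RANKL tags against 404.2 scaled WENRC tags, a fold of 2.42. Msx1 is a homeobox factor downstream of BMP signals in tooth and limb.

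Lhx9, a factor of gonad and limb development, went the other way. It had 0 RANKL-higher regions and 7 WENRC-higher ones, at 14.7 to 77.5 kb from its start, with folds from 2.13 to 5.18. Near starts, the WENRC-higher regions belonged to Dlx1as, Dlx3, Tbx2, Tbx4, Tbx10 and Tbx22. The one annotated as promoter was at Tbx10 (chr19:3991855-3993244), where WENRC had 78.3 scaled tags and RANKL 25, a fold of 3.13. Dlx3, Tbx2 and Tbx4 had regions of both kinds within 5 kb, as did 400 of all listed genes (1.63%). At Tbx2 the RANKL-higher region at chr11:85650357-85650857 (61 tags against 26.1) lay less than 1 kb from the WENRC-higher one at chr11:85649765-85650265 (25 against 51.3).

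Promoter sequences bear on these regions because Polycomb marking in mammals is concentrated at promoters rich in CpG. The RefSeq table of GRCm38.p6 promoters (250 bases before to 50 after the start, 300 in all) matched 44 of the 66 genes, with 56 start sites. The median number of CpG per promoter was 16.0 at these starts and 7.0 over all 32851 promoters. CpG reads the same on both strands. A CpG observed-to-expected ratio of at least 0.6 with a GC content of at least 50% held for 60.7% of them and for 33.5% of all. Among starts of members with a RANKL-higher region within 5 kb the share was 71.9% (23 of 32), and among the others 45.8% (11 of 24). For all genes with such a region it was 44.4%. The promoters of 6 genes are given 5′ to 3′ on the gene's strand, with each CpG in capitals: Six4, Lhx3 and Meis1 changed in transcription and had RANKL-higher regions near the start, Meis2 had the largest H3K27me3 fold, Pbx2 changed in transcription without a region, and Tbx10 had the WENRC-higher promoter region.
Six4 (chr12:73113376-73113675, minus strand): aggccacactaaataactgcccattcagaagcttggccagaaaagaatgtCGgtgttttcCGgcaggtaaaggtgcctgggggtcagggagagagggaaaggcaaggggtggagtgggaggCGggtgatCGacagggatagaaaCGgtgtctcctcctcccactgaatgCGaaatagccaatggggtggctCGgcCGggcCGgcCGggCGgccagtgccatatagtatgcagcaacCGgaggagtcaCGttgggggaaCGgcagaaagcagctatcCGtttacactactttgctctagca
Lhx3 (chr2:26208200-26208499, minus strand): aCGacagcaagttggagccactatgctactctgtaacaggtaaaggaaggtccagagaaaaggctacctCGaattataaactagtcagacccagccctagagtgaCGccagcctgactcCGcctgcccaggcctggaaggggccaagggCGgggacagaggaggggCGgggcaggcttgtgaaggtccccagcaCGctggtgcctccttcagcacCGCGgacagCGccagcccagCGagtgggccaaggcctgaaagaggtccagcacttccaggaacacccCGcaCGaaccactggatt
Meis1 (chr11:19018920-19019219, minus strand): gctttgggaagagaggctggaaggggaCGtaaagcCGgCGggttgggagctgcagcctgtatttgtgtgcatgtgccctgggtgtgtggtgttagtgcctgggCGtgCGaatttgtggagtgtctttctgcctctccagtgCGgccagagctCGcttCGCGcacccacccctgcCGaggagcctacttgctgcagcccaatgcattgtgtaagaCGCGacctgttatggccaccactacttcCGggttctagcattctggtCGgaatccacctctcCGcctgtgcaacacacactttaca
Meis2 (chr2:116064570-116064869, minus strand): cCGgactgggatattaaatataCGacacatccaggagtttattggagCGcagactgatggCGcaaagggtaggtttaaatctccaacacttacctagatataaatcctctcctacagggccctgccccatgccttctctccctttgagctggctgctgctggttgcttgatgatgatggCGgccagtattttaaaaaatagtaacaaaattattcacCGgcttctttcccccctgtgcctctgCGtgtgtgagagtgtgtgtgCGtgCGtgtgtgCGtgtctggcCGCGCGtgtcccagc
Pbx2 (chr17:34592009-34592308, plus strand): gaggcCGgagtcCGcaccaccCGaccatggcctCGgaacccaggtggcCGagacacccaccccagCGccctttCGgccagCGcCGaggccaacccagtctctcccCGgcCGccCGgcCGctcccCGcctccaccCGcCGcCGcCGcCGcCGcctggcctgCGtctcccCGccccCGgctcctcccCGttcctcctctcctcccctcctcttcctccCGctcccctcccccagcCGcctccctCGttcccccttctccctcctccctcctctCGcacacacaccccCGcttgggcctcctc
Tbx10 (chr19:3992502-3992801, plus strand): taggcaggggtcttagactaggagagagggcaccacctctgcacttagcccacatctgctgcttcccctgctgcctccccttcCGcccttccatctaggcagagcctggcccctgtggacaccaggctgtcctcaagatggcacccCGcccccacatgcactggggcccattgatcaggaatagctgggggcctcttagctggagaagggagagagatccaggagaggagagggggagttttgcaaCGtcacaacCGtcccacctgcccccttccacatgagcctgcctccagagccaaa
These coordinates are GRCm38.p6, unlike the mm9 coordinates of genes and regions elsewhere. For Six4 and Lhx3 the table lists 2 starts, and the outermost is shown. The other start of Lhx3 had 28 CpG (CpG ratio 0.75, against 0.47 for the one shown) and that of Six4 had 16. The Pbx2 promoter held 29 CpG at a GC content of 76.0%, Six4 15, Meis1 15, Lhx3 13, Meis2 13 and Tbx10 4 (CpG ratio 0.14).

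In transcription, most of the genes were at or near the bottom of the scale. Of the 66, 28 (42.4%) passed the filter for testing, a value of at least log2 of 10 in at least 2 libraries, against 67.6% of all listed genes. Given by the member of highest mean over the 6 libraries, the Meis, Tbx, sine oculis, Otx, Lhx, Msx, Irx, Emx and Dlx genes ranged from Meis2 (11.66) and Tbx3 (9.60) through Six5 (5.26), Otx2os1 (5.10), Lhx1 (4.69), Msx1 (4.68) and Irx5 (4.59) to Emx1 (3.47) and Dlx6os1 (2.94). The 38 untested genes had library values between -1.98 and 3.45, and 4 of them (Dlx2, Dlx5, Dlx6os2 and Six6) were listed at 0 in all 6 libraries. Of the 10 Dlx genes 0 were tested, of the 14 Tbx genes 6, of the 9 Lhx genes 5 and of the 7 sine oculis homeobox genes 2. Meis (3) and Pbx (4) were the families tested in full. For low genes the deposited values differ by less than the authors' own fold changes (Lhx3 in RANKL over WENRC, -1.16 against -4.03 in the authors' deposited table), so an equal value there does not show equal transcription. RANKL-higher H3K27me3 within 5 kb was found for 24 of the 38 untested genes (63.2%, against 21.3% of all untested genes) and for 14 of the 28 tested ones (50%, against 18.0%). WENRC-higher regions lay that near 5 untested genes (13.2%, against 6.33%) and 1 tested gene (3.57%, against 5.01%).

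Per length, on the scale of the log2 value minus log2 of the gene length in kb, Tbx3 had the highest level of the 28 in RANKL and the lowest was that of Tbx5. Tbx3 stood at 6.70 in RANKL, 5.69 in WENRC and 5.04 in ENRI. Tbx6, a T-box factor of the presomitic mesoderm, followed in RANKL at 5.66 and was the highest in the others, at 5.84 in WENRC and 5.63 in ENRI. Pbx2 stood at 4.87, 4.20 and 4.01 in RANKL, WENRC and ENRI, and Meis2 at 3.94 in RANKL and 4.38 in ENRI. Tbx5 lay at -2.50, -2.56 and -2.62.

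The first comparison, RANKL against ENRI, set M cell against enterocyte cultures. Of the 28 tested genes, 5 were higher in RANKL (Tbx3, Tbx3os2, Pitx1, Six4 and Pbx2) and 1 was lower (Meis1), by limma with an FDR under 0.05 over 16563 genes. That is 21.4% of them, against a background of 20.9% of all tested genes (10.4% higher, 10.5% lower), so the share called is near the background. The median log2 change was 0.07 over the 28 and 0.00 over all tested genes. Libraries of the cultures did not overlap for 16 of the 28 (57.1%, against 64.7% of all tested genes). By the authors' adjusted p, 6 of the 28 passed, against 19.6% of all tested genes.

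RANKL against WENRC contrasted M cell with stem cell cultures. Here 2 genes were higher in RANKL (Six4 and Tbx3) and 2 lower (Lhx3 and Irx5), 14.3% of the 28 against 12.1% of all tested genes (8.53% higher, 3.62% lower). The mouse number was fitted as a block, a term carried by the ENRI and WENRC libraries alone since RANKL libraries have no mouse number. With it 5 were higher and 4 lower, the 5 additions being Meis1 and Pbx3 (lower) and Msx1, Msx1os and Pbx4 (higher). The share of all tested genes called in that fit is not given here, so these counts have no background. By the adjusted p in the authors' deposited table, 10 of the 28 passed, against 27.8% of all tested genes. Libraries did not overlap for 19 of the 28 (67.9%, all tested genes 68.6%). Without the block, WENRC against ENRI had 4 higher (Tbx3os2, Pitx1, Lhx3 and Tbx3) and 0 lower. That is 14.3% against a background of 14.6% (4.85% higher, 9.74% lower), while 7 had an unadjusted p under 0.05. With the block, in which these libraries pair by mouse, 5 were higher and 1 lower. Pbx3 (higher, limma FDR 0.0230) and Meis2 (lower, 0.0445) were added, and these counts too have no background. The 4 calls made without the block ended when only the 4 libraries compared were fitted. This held both without the mouse block (limma FDR 0.0770 to 0.116) and with it (0.0762 to 0.145). By the authors' adjusted p 1 passed (all tested genes 12.5%), and libraries did not overlap for 15 of the 28 (53.6%, all tested genes 58.5%). The 3 comparisons share libraries and are not independent.

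**Figure D4:**
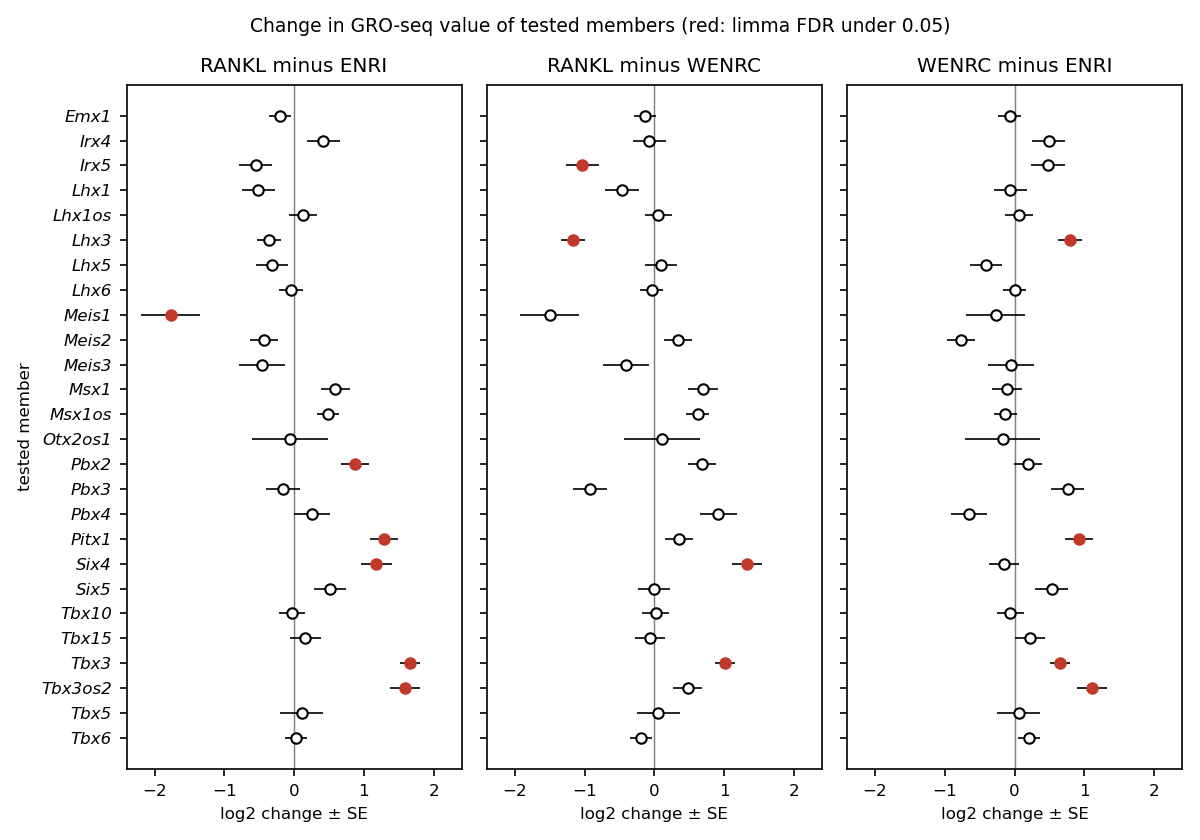
Log2 change in GRO-seq value (horizontal axis, point) with its SE (bar) for tested members (vertical axis) in each of 3 comparisons, red where the limma FDR was under 0.05. Most points lie near 0, and the red points farthest from 0 are Tbx3 (1.66) and Tbx3os2 (1.59) on the right and Meis1 (-1.77) on the left, all in RANKL minus ENRI.

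Tbx3, a T-box repressor that delays senescence and acts in limb, mammary and heart development, had GRO-seq values of 10.41 and 10.58 in RANKL, 8.73 and 8.93 in ENRI, and 9.52 and 9.45 in WENRC (NM_198052, chr5:120120871-120134733). The 3 cultures did not overlap, with RANKL highest and ENRI lowest. Tbx3 was higher in RANKL than in ENRI by 1.66 (SE 0.14, limma FDR 0.00263), a fold of 3.17, and than in WENRC by 1.01 (SE 0.14, limma FDR 0.0115). It was higher in WENRC than in ENRI by 0.65 (SE 0.14, limma FDR 0.0347). In the authors' deposited table the first change was 1.94 with an adjusted p of 2.63e-09, and the last did not pass (0.0936). Leaving out RANKL 1 or RANKL 2 ended every call named here, and for this first one the limma FDR became 0.0547 or 0.0617. Its 3 RANKL-higher H3K27me3 regions lay 5.1 to 10.7 kb upstream of the start, with folds from 2.61 to 3.33.

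Tbx3os2, a non-coding transcript on the opposite strand (NR_040416, chr5:120135097-120141227), ends 364 bp from the end of Tbx3. The values were 6.54 and 6.22 in RANKL, 4.69 and 4.89 in ENRI, and 5.94 and 5.87 in WENRC, with the same order of cultures and no overlap. The change was 1.59 over ENRI (SE 0.21, limma FDR 0.00654), 0.48 over WENRC (limma FDR 0.187), and 1.11 in WENRC over ENRI (limma FDR 0.0238). Strand handling is not given in the sources used here, so reads running past the end of either gene could be counted in the other.

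Pitx1, the paired-like factor of hindlimb and pituitary, had 6.42 and 6.46 in RANKL, 5.32 and 4.99 in ENRI, and 5.99 and 6.18 in WENRC (NM_011097, chr13:55926415-55932786). ENRI was the low culture. Pitx1 was higher in RANKL than in ENRI by 1.29 (SE 0.20, limma FDR 0.0117) and in WENRC than in ENRI by 0.93 (SE 0.20, limma FDR 0.0360), and RANKL and WENRC differed by 0.36 (limma FDR 0.305). The call in WENRC over ENRI was lost by the authors' adjusted p (0.0958) and without the filter (limma FDR 0.0506). Its start carried more H3K27me3 in RANKL than in WENRC. The region over the promoter (chr13:55932382-55933306) had 55 tags against 20.7, a fold of 2.66, and one 1.6 kb upstream (chr13:55934139-55934639) had 34 against 7.2, a fold of 4.72. In all, 15 RANKL-higher and 0 WENRC-higher regions were assigned to the gene.

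Six4, which acts in muscle and kidney development, had 5.46 and 5.16 in RANKL, 3.95 and 4.31 in ENRI, and 3.97 and 4.0 in WENRC (chr12:74201246-74214232). Both RANKL libraries were above all 4 others. The change was 1.18 over ENRI (SE 0.22, limma FDR 0.0170) and 1.33 over WENRC (SE 0.22, limma FDR 0.0162). The first call was lost with only the RANKL and ENRI libraries in the fit (limma FDR 0.0506). In the authors' deposited table these were 2.76 and 3.45 (adjusted p of 0.00785 and 3.36e-05). Within the gene, RANKL also had more H3K27me3 than WENRC, with 100 tags against 39.6 at chr12:74210898-74212258 (fold 2.52) and 38 against 11.7 at chr12:74209259-74210220 (fold 3.25). Its promoter with 15 CpG is printed above.

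Pbx2, a partner of Hox and Meis proteins, had 6.99 and 7.32 in RANKL, 6.37 and 6.21 in ENRI, and 6.56 and 6.41 in WENRC (chr17:34729416-34734286). RANKL lay above the others without overlap. Pbx2 was higher than in ENRI by 0.87 (SE 0.20, limma FDR 0.0318), while the change over WENRC was 0.68 (limma FDR 0.0845), and it had no H3K27me3 region in either table. With only the RANKL and ENRI libraries in the fit, the limma FDR was 0.0742. Pbx3 and Pbx4 had values of 7.80 to 10.79. Against WENRC they changed by -0.92 and 0.92, short of the threshold (limma FDR 0.0611 and 0.0722) unless the mouse term was in the fit (0.0132 and 0.0272). In the authors' deposited table both passed there (adjusted p of 3.43e-06 and 0.000134). With quantile or upper-quartile scaling Pbx3 passed against WENRC (limma FDR 0.0208 and 0.0317) and in WENRC over ENRI (0.0267 and 0.0423), and Pbx4 did not.

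Meis1 is a cofactor of Hox proteins known from blood stem cells. Without the mouse block it was the one gene called lower in RANKL than in ENRI. Its values were 5.12 and 5.24 in RANKL, 7.60 and 6.29 in ENRI, and 6.72 and 6.63 in WENRC (chr11:18780431-18918972). RANKL was the low culture without overlap, and the ENRI libraries differed by more than 1 unit. The change was -1.77 against ENRI (SE 0.42, limma FDR 0.0334) and -1.5 against WENRC (SE 0.42, limma FDR 0.0723, or 0.0296 with the mouse block). In the authors' deposited table these were -3.32 and -2.69 (adjusted p of 0.000333 and 2.92e-05). With only RANKL and ENRI in the fit the limma FDR was 0.0805, and the change was -1.11 without ENRI 1. H3K27me3 around its start was higher in RANKL in 3 regions within 5 kb. The largest (chr11:18920043-18922849) had 311 tags against 145.8, a fold of 2.13.

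Lhx3, a LIM-homeobox factor of pituitary and motor neurons, had 3.84 and 3.74 in RANKL, 4.13 and 4.15 in ENRI, and 4.90 and 4.99 in WENRC (chr2:26055732-26063769). WENRC was the high culture and RANKL the low one, close to the filter. The change was -1.16 against WENRC (SE 0.17, limma FDR 0.0127) and 0.80 in WENRC over ENRI (SE 0.17, limma FDR 0.0330). The second call was lost by the authors' adjusted p (0.0672) and without the filter (limma FDR 0.0537). A region of 2842 bp over its promoter (chr2:26061661-26064503) had 187 RANKL tags against 66.6, a fold of 2.81. Irx5, an Iroquois factor of heart and retina, had 3.98 and 4.14 in RANKL, 4.39 and 4.84 in ENRI, and 4.93 and 5.26 in WENRC. The RANKL libraries were the lowest and the WENRC libraries the highest. It was lower in RANKL than in WENRC by a change of -1.03 (SE 0.24, limma FDR 0.0445), a call lost without the low-value filter (0.0643). Against ENRI the change of Irx5 was -0.55 (SE 0.24, limma FDR 0.155, or 0.0477 with the mouse block). Irx5 had 10 RANKL-higher regions. One of them, 4428 bp long at chr8:94887717-94892145, had 438 tags against 190.9 (fold 2.29).

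**Figure D5:**
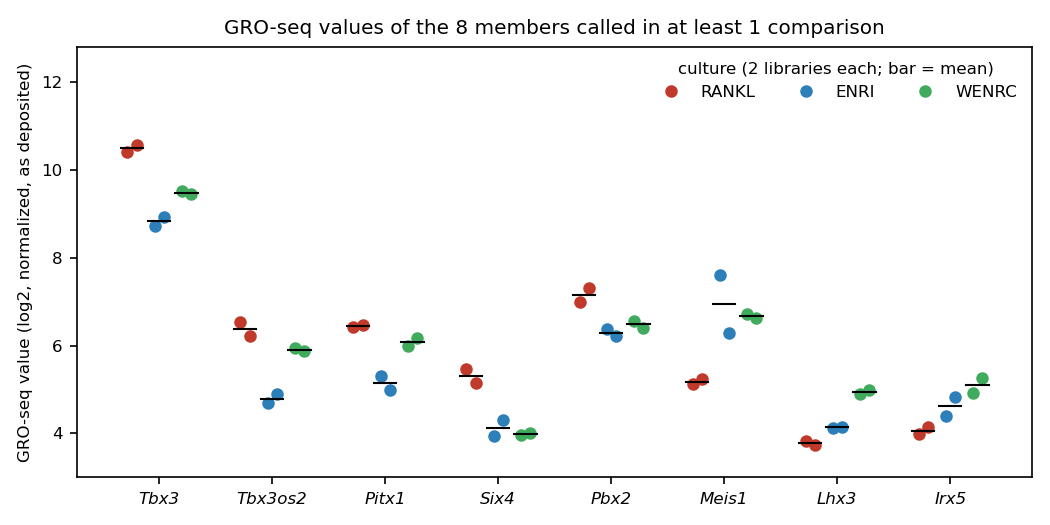
GRO-seq values (vertical axis, log2, normalized, as deposited) of the 8 genes called in at least 1 comparison (horizontal axis), with a point for each library and a bar at the mean of the 2 libraries of a culture. Tbx3, Tbx3os2, Pitx1, Six4 and Pbx2 are highest in RANKL (red), and Meis1, Lhx3 and Irx5 are lowest there.

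Set side by side, 5 of the 8 genes called in transcription had a RANKL-higher H3K27me3 region within 5 kb, against 14 of the 28 tested members (50%) and 18.0% of all tested genes. The mark was compared between RANKL and WENRC only. In that comparison, among the 5, Lhx3 and Irx5 had lower transcription in RANKL and Six4 higher. By limma without the mouse block, Meis1 and Pitx1 were called only against ENRI. Meis1 was also lower in RANKL than in WENRC with the mouse block (limma FDR 0.0296) and by the authors' adjusted p (2.92e-05). Pitx1 passed against WENRC by neither (0.255 and 0.394). Pbx2, Tbx3 and Tbx3os2 had no region that near. Msx1 and Msx1os, which overlap on opposite strands and lie in the 10119 bp region, had 5.09 and 5.13, and 4.05 and 4.14, in RANKL. These were above all other libraries (at most 4.73 and 3.65), with changes over WENRC of 0.70 and 0.62 (limma FDR 0.0891 and 0.0626). With the mouse block both passed against WENRC (limma FDR 0.0347 and 0.0300) and against ENRI (0.0402 and 0.0407). No H3K27me3 values for ENRI were used here.

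Partner genes and the writers of the mark were read from lists. Of the 12 PRC2 subunit genes, all tested, 6 were higher in RANKL than in ENRI (10.4% of all tested genes were) and 2 than in WENRC (8.53% of all tested genes), with 0 lower. By the authors' adjusted p, 4 passed in each of these comparisons. Jarid2, which helps recruit PRC2, changed most, by 2.49 and 1.92 (limma FDR 0.00311 and 0.00727). Of the alternative catalytic subunit genes, Ezh1 changed by 0.79 and 0.82 (limma FDR 0.0194 and 0.0238). Ezh2 changed by 0.78 and 0.06 (limma FDR 0.0481 and 0.892). Of the 2 H3K27 demethylase genes, Kdm6a and Kdm6b, 0 were called by limma in any comparison. Against WENRC both had an unadjusted p under 0.05 and passed by the authors' adjusted p, with changes of 0.80 and 0.53 (limma FDR 0.0694 and 0.157), and in the other comparisons 0 did either. Of 14 tested cofactors of LIM-domain and sine oculis homeobox proteins, 3 were higher in RANKL than in ENRI: Ldb1, the LIM-domain binding adaptor, by 1.12, Ssbp3, its stabilizing partner, by 1.32, and Dach1, a partner of sine oculis homeobox and Eya proteins, by 1.43. Against WENRC, Ldb1 was higher by 0.94 (limma FDR 0.0187), and in WENRC over ENRI Dach1 by 1.89 (limma FDR 0.00624). The list of TALE partners held 5 genes from outside the 66. Of these, Tgif2 was higher in RANKL than in ENRI by 1.48 and in WENRC than in ENRI by 0.99. Mkx was lower in RANKL than in both (-1.34 and -1.36, limma FDR 0.0127 and 0.0159).

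A list of 27 other developmental factors, such as Pax, Nkx and Hand genes, was read for the mark as well. Within 5 kb, 15 of them (55.6%, all genes 19.1%) had a RANKL-higher and 5 (18.5%, all genes 5.44%) a WENRC-higher region, the latter a larger share than the 9.09% of the homeobox and T-box genes. Of its 10 tested genes, Prrx1, a paired-related factor of mesenchyme, and Pax8, of thyroid and kidney, were lower in RANKL than in ENRI (-2.35 and -1.69, limma FDR 0.00344 and 0.00401) and in WENRC than in ENRI (-2.25 and -0.97). Between RANKL and WENRC 0 were called by limma (1 at an unadjusted p under 0.05, 1 by the authors' adjusted p), with changes between -1.15 and 0.38.

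Because many of these factors mark mesenchyme, nerve or endocrine cells, markers of those cells were read in the same libraries. Of 9 mesenchyme markers 7 had a mean under the filter, among them Col1a1 (at most 2.46), Col1a2, Dcn and Lum. Of the tested ones, Pdgfrb was higher in RANKL than in ENRI and WENRC, by 1.94 and 2.45 (limma FDR 0.0143 and 0.0102), and Acta2 had changes of -0.39 and -0.60 (limma FDR 0.360 and 0.211). The summed level of the list, of which Pdgfrb alone made 9.21 and 9.26 in RANKL, was 9.54 and 9.60 in RANKL, 8.40 and 8.59 in ENRI, and 8.09 to 8.72 in WENRC. Enteroendocrine markers (6 of 7 tested) had 2 higher in RANKL than in ENRI and 1 than in WENRC by limma, and 0 lower. By the authors' adjusted p, 5 passed against ENRI and 3 against WENRC. Only Pax6 of those tested had negative changes, of -1.14 and -1.15 (limma FDR 0.156 and 0.187). Chgb, not called by limma, alone made 10.13 and 10.64 of the summed level in RANKL. The sums were 10.69 and 11.10 in RANKL, 9.74 and 10.22 in ENRI, and 9.83 and 10.04 in WENRC. Of 3 tested tuft markers, Pou2f3 was higher in RANKL than in both (1.89 and 1.31), with summed levels of 9.13 and 9.19 in RANKL against 7.80 to 8.35. Of 5 neural and glial markers (3 tested), S100b was lower in RANKL than in ENRI (-1.08), and the summed levels were 6.49 and 6.65 in RANKL against 6.82 to 7.29. Endothelial markers (1 of 3 tested) and immune markers (2 of 4 tested) had 0 calls by limma in the 3 comparisons and 0 by the authors' adjusted p, with 1 endothelial marker at an unadjusted p under 0.05 in both RANKL comparisons, no immune marker, and summed levels of at most 5.73 and 5.34. The part of these cells in the differences above was not tested.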

How the data were processed

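GRO-seq of 6 libraries and H3K27me3 ChIP-seq of 3 were used. Per the file headers, the authors summed GRO-seq reads over whole RefSeq genes of mm9 with HOMER and deposited normalized log2 values. The transform is not given in the sources used here. Changes of low genes are smaller in these values than in the authors' own fold changes. Bowtie2 2.3.4.1, HOMER and DESeq2 are named in the submitters' processing notes. The authors' log2 fold changes and p-values were copied from the deposited table after their sign was turned to first-named minus second-named. H3K27me3 regions are the authors' HOMER peaks of one culture over the other, per the file headers: RANKL tags are deposited counts in the RANKL table, WENRC tags a deposited signal in steps of 0.9 per tag (99.8% whole multiples, within 0.1 of a step), and the fold is the authors' ratio of tags. The smallest deposited tag value is 0.5, read as a floor. Blank rows (12) were dropped. Of the gene names in the peak tables, 97.2% were in the GRO-seq table.

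limma 3.58.1 (R 4.3.3) was run on the log2 values as deposited, with a variance trend, all 6 libraries and no block. P-values are two-sided and adjusted by Benjamini-Hochberg over 16563 genes with at least 2 libraries at log2 of 10 or more. The fit was tested on simulated data. The members, gene lists and tests were chosen with earlier results of these data known. Every member called in a comparison is named with its values, and further members by family or for their H3K27me3 values, after these were seen. ENRI and WENRC libraries pair by mouse per the labels: across genes, their replicate differences correlated (r = 0.414), against -0.205 and -0.323 with RANKL, whose numbers name no mouse and which has no mouse term in the blocked fit. Results of some single members are not reported here. Overlapping genes are uncertain for 2 tested members, Msx1 and Msx1os.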

Additional observations from a re-analysis of the deposited data

How the results depend on the processing

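Of the 14 calls of single genes, no alternative run changed a direction. Among tested members not called, Meis2 in RANKL minus WENRC changed sign with quantile normalization. All 14 stayed past the threshold with the mouse number as replicate block, with both rescalings and without ENRI 1 or ENRI 2, as did the 9 still tested under the stricter filter. The authors' adjusted p and no filter ended 3 each, and a fit of only the 4 libraries compared ended 7. Leaving out RANKL 1 or RANKL 2 ended all 14 (smallest limma FDR 0.0547), and leaving out WENRC 1 or WENRC 2 ended 10 and 11. In these fits the lone library is assumed to vary like the other cultures. With only the 4 libraries compared, 3 members were called in RANKL minus ENRI, 10 in RANKL minus WENRC and 0 in WENRC minus ENRI (6 at an unadjusted p under 0.05 by limma). With the mouse as replicate block in those 4, a setting added after seeing the data, it was also 0 (9 unadjusted, 1 by the authors' adjusted p). The replicate block with all 6 libraries gave 9, 9 and 6. In RANKL minus WENRC the stricter filter, log2 of 50, gave 1 of the 11 members still tested, and the authors' adjusted p gave 10. That filter took Six4, Lhx3 and Irx5 out of the test, and Tbx3 stayed called (limma FDR 0.0102). In WENRC minus ENRI no filter gave 2 and the authors' adjusted p 1. Leaving out 1 library gave from 0 to 12, 0 to 10 and 0 to 8 calls (where it gave 0, 5 to 9 members had an unadjusted p under 0.05). For these other limma settings the share of all tested genes called is not given here, so the counts have no background. The cause of these moves was not tested. Members with a RANKL-higher region numbered 23 within 1 kb and 3 at a fold of at least 4. Those with a WENRC-higher region numbered 1 within 1 kb, 29 within 50 kb, 34 at any distance and 0 at a fold of at least 4 (336 of all genes). Upper-quartile recentring moved the median change of all genes to -0.12 in RANKL minus WENRC and to 0.10 in WENRC minus ENRI. GRO-seq depth is unknown, so no detection limit can be given for silent members.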
